A study of Mus musculus with 4 samples.

Results

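The pericyte identity genes around *Rgs5* are 10 of the 32285 genes counted in single cells of hyaloid vessels. They were taken by gene symbol and comprise *Rgs5*, *Rgs4*, *Cspg4*, *Mcam*, *Kcnj8*, *Abcc9*, *Higd1b*, *Vtn*, *Des* and *Anpep*. Pericytes are mural cells that lie in the basement membrane of capillaries, touch the endothelial tube and are recruited by endothelial PDGF-B through the receptor PDGFRB. In the vessels of brain and eye they take part in vessel stability and barrier function. Their transcripts typically include a regulator of G protein signalling, a proteoglycan, adhesion proteins and an ATP-sensitive potassium channel.

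Hyaloid vessels were isolated from vitreous bodies of mice at postnatal day 6, and the vitreous bodies were pooled by genotype into 1 cell suspension each. Knockout mice (*Gpr124* ∆EC/∆EC) lost *Gpr124* in endothelial cells through the tamoxifen-inducible VECad-Cre-ERT2 transgene, and control littermates (*Gpr124* fl/fl) carried the floxed alleles without Cre. Both genotypes received tamoxifen. SORT-seq sorts single cells into the wells of 384-well plates and counts the 3′ ends of transcripts by unique molecular identifiers (UMIs), 1 per molecule. From each suspension 2 plates were made. Replicate 1 was assigned to a CD31 gate and replicate 2 to a PDGFRB gate, with some CD31 wells in knockout replicate 2. This assignment was matched to the study's sorting scheme through library names. Neither the sample labels nor the study's methods text give a gate for each plate. Plates of 1 genotype therefore share their mice and their suspension.

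The plates held 108059 UMIs of mouse genes in control replicate 1, 128082 in control replicate 2, 51972 in knockout replicate 1 and 174645 in knockout replicate 2. Wells with 1000 to 8000 UMIs, counted after each plate was scaled so that its median well matched that of control replicate 2, and with less than 10% mitochondrial UMIs were retained. A retained well was an endothelial cell with UMIs of *Cldn5* and none of *Pdgfrb*, and a pericyte with UMIs of *Pdgfrb* and none of *Cldn5*. This left 21 pericytes with 80460 UMIs and 11 endothelial cells with 31048 UMIs. Pericytes numbered 6 in control replicate 1, 3 in control replicate 2, 0 in knockout replicate 1 and 12 in knockout replicate 2. Endothelial cells numbered 2, 3, 4 and 2 in the same order of plates. The classes did not follow the gates in either control plate, since control replicate 1, assigned to the CD31 gate, held more pericytes than endothelial cells and control replicate 2, assigned to the PDGFRB gate, held 3 of each. Single pericytes held 1309 to 7222 UMIs with a median of 3750, and single endothelial cells 1104 to 6901 with a median of 3020.

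All plates use the same well barcodes, and for 10 of the 32 cells, 7 pericytes and 3 endothelial cells, the barcode also marked a well of at least 1000 UMIs in another plate. Member calls that change without these cells, and genotype ratios that turn or leave their interval, are given with and without them. The targeted gene *Gpr124*, listed as *Adgra2*, had 2 UMIs in endothelial cells of control replicate 1, 1 in control replicate 2 and 0 in each knockout replicate. In pericytes it had 6, 1 and 17 UMIs in control replicate 1, control replicate 2 and knockout replicate 2. Tags at the 3′ end may lie outside the deleted part of the gene, so these counts do not check the deletion. The study itself reported a strong loss of GPR124 immunostaining in hyaloid vessels of knockout mice. It also took its own mRNA levels as showing the knockout.

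The first question was how far the 10 genes separate the cell classes on genes that did not define them. Levels are UMIs per 10000 UMIs of a class in a plate, with exact 95% Poisson intervals in the plots. Classes were compared over the sums of cells per class and plate with edgeR's quasi-likelihood test and Benjamini-Hochberg adjustment over the 2689 genes with at least 10 UMIs, and all 10 members reached that number. An adjusted p under 0.05 counts as called. Plates, not cells, were the replicates, and the p-values measure the spread between sums that come from 1 suspension per genotype. Of the 10 genes, 6 were called higher in pericytes, against 180 of all genes tested (6.69%). The members and the gene lists used below were chosen with earlier results of these data known. Their contrasts with all genes are therefore not independent of these data. In either direction 256 genes were called (9.52%), of which 76 were lower in pericytes, and no member was among these 76. Every pericyte sum lay above every endothelial sum for 7 of the 10 genes, against 342 of the 2689 genes (12.7%). Of these 7, 4 had no endothelial UMI and passed the filter through pericytes alone, which hold the larger share of UMIs. Of the 6 members with UMIs in both classes 3 did not overlap. The 12.7% is over all genes, of which 223 had no UMI in a class, and the matching share over the others was not counted. The median fitted log2 fold change of pericytes over endothelial cells was 4.22 over the 10 genes and 0.52 over all genes. With genes that had no UMI in a class set at their bound, 3 UMIs over that class, these medians were 2.94 and 0.48.

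**Figure D1:**
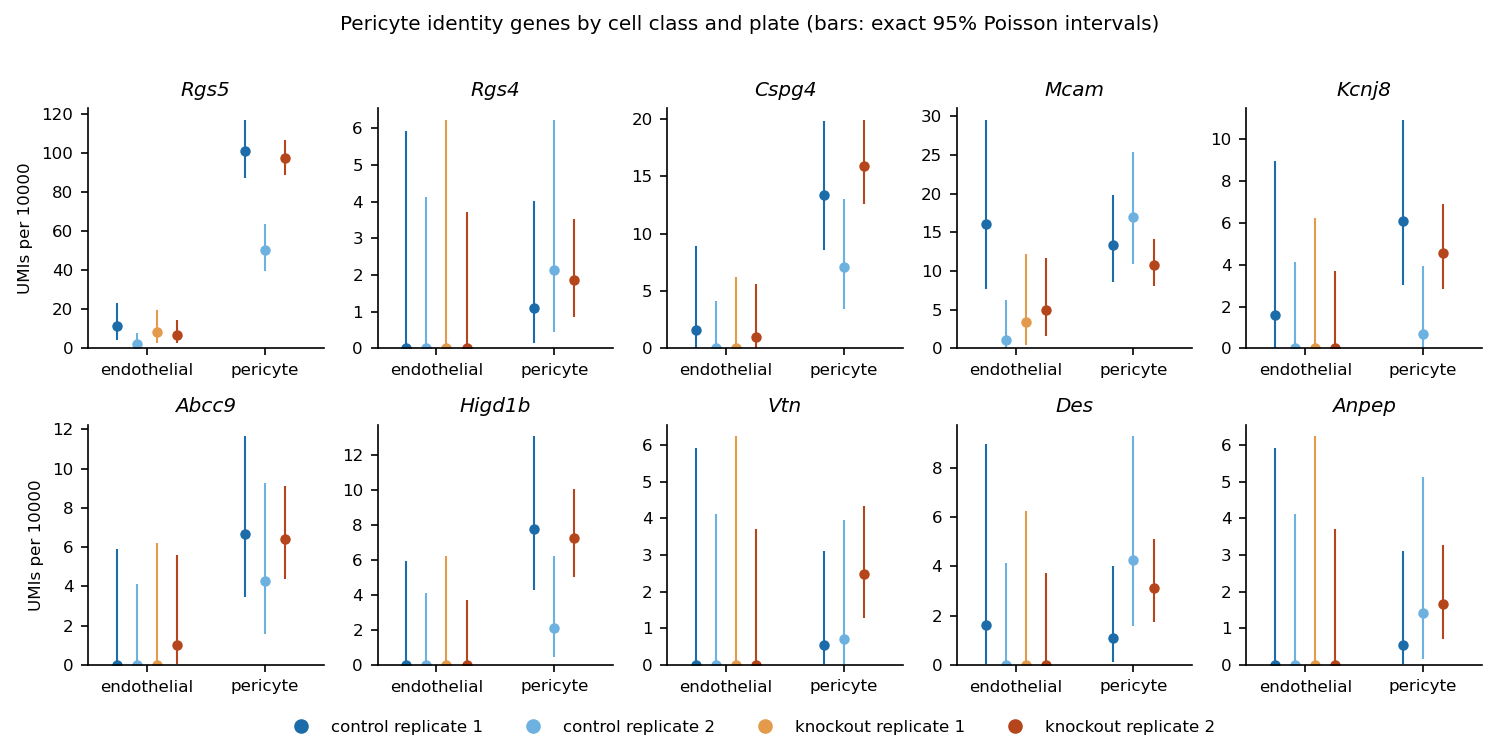
UMIs per 10000 of each of the 10 genes in endothelial cells and pericytes, with 1 point per plate that holds the class and exact 95% Poisson intervals as bars. *Rgs5* spans 50.4 to 101 in pericytes and 2.23 to 11.2 in endothelial cells, while the classes overlap for *Mcam*, *Kcnj8* and *Des*.

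*Rgs5* and *Rgs4* encode regulators of G protein signalling, which speed up the GTP hydrolysis of Gα subunits and so shorten the signal of receptors such as those for endothelin or angiotensin. Pericytes held 101 UMIs of *Rgs5* per 10000 in control replicate 1, 50.4 in control replicate 2 and 97.2 in knockout replicate 2. Endothelial cells held 11.2 per 10000 in control replicate 1, 2.23 in control replicate 2, 8.44 in knockout replicate 1 and 7.04 in knockout replicate 2. Every pericyte sum thus lay above every endothelial sum, and the lowest level of each class was in control replicate 2. Pooled over plates, the *Rgs5* level was 89.9 per 10000 in pericytes and 6.76 in endothelial cells, a ratio of 13.3 with an exact interval of 8.63 to 21.6. The fitted log2 fold change was 3.96 with a standard error of 0.33, and *Rgs5* had the smallest p-value of all genes tested (edgeR quasi-likelihood test, Benjamini-Hochberg adjusted p = 8.38e-29, 3 of 3 pericyte sums above the 4 endothelial sums). *Rgs4*, its neighbour on the chromosome, was sparse, with 1.11 UMIs per 10000 in pericytes of control replicate 1, 2.13 in control replicate 2 and 1.86 in knockout replicate 2. None of the 11 endothelial cells had an *Rgs4* UMI. The pooled *Rgs4* level of 1.74 per 10000 in pericytes was 1.80 times a floor of 3 UMIs over the endothelial cells. The exact lower limit of the ratio was 1.28, and the gene was not called (edgeR quasi-likelihood test, Benjamini-Hochberg adjusted p = 0.0711, 3 of 3 pericyte sums above 0).

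Most *Rgs5* UMIs of endothelial cells were in cells with a shared barcode. The 3 endothelial cells with a shared barcode held 17 *Rgs5* UMIs, or 14.3 per 10000 with an interval of 8.33 to 22.9. The other 8 endothelial cells held 4 UMIs of *Rgs5*, or 2.09 per 10000 with an interval of 0.569 to 5.35. The intervals did not overlap. Each of the 3 barcodes marked at least 1 well of at least 1000 UMIs in another plate, namely pericytes with 30 and 26 *Rgs5* UMIs, a well with both markers and 37, and a well with neither marker and 21. The part of barcode sharing in the endothelial *Rgs5* UMIs was not tested. Without all cells with a shared barcode the fitted log2 fold change of *Rgs5* was 5.56 (edgeR quasi-likelihood test, Benjamini-Hochberg adjusted p = 3.54e-17, range over 14 alternatives 5.69e-29 to 1.33e-07, all in favour of pericytes). The endothelial *Mcam* UMIs were spread differently, with 5 UMIs or 4.20 per 10000 in the 3 cells with a shared barcode and 13 UMIs or 6.79 per 10000 in the other 8.

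Among the surface proteins, *Cspg4* encodes the proteoglycan NG2, *Mcam* the adhesion molecule CD146 and *Anpep* the aminopeptidase CD13. *Cspg4* was at 13.3 UMIs per 10000 in pericytes of control replicate 1, 7.09 in control replicate 2 and 15.9 in knockout replicate 2. In endothelial cells the *Cspg4* level was 1.61 in control replicate 1, 1.01 in knockout replicate 2 and 0 in the other two plates, from 2 UMIs in all. The classes did not overlap, and both endothelial UMIs came from cells with a shared barcode. The pooled *Cspg4* ratio was 21.4 with an interval of 5.79 to 179, and the fitted log2 fold change was 4.47 with a standard error of 0.77 (edgeR quasi-likelihood test, Benjamini-Hochberg adjusted p = 7.36e-07, 3 of 3 pericyte sums above the 4 endothelial sums). Without cells with a shared barcode *Cspg4* had 0 endothelial UMIs and stayed called (edgeR quasi-likelihood test, Benjamini-Hochberg adjusted p = 6.80e-05, range over 13 alternatives 9.92e-08 to 0.00428, all higher in pericytes).

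*Mcam*, which endothelial cells are also known to express, was at 13.3 UMIs per 10000 in pericytes of control replicate 1, 17.0 in control replicate 2 and 10.8 in knockout replicate 2. In endothelial cells the *Mcam* level was 16.1 in control replicate 1, 1.12 in control replicate 2, 3.38 in knockout replicate 1 and 5.03 in knockout replicate 2. The endothelial sum of control replicate 1 lay within the pericyte range, so the classes overlapped. The pooled *Mcam* ratio was 2.14 with an interval of 1.29 to 3.76. The fitted log2 fold change was 1.49 with a standard error of 0.51 (edgeR quasi-likelihood test, Benjamini-Hochberg adjusted p = 0.0397, 3 of 3 pericyte sums above 3 of 4 endothelial sums). With the plate as a block, over the 3 plates with both classes, the adjusted p of *Mcam* was 0.0617 (edgeR quasi-likelihood test, Benjamini-Hochberg, log2 fold change 1.48), and over 14 alternatives it ranged from 0.00238 to 0.381, with 5 of 14 called. The *Mcam* call was lost without control replicate 2, knockout replicate 1 or knockout replicate 2 (adjusted p 0.229, 0.0595 and 0.181 in edgeR's quasi-likelihood test with Benjamini-Hochberg adjustment) and without cells with a shared barcode (0.381). The fitted log2 fold changes of *Mcam* were then 0.97, 1.42, 1.48 and 1.03, so without either knockout plate the call was lost at a similar fold. *Anpep* had 11 UMIs in all pericytes, at 0.555 to 1.65 per 10000 over the plates, and none in endothelial cells. Its pooled level in pericytes was 1.41 times the same floor, but the exact lower limit of 0.968 includes equal levels, and *Anpep* was not called (edgeR quasi-likelihood test, Benjamini-Hochberg adjusted p = 0.131, 3 of 3 pericyte sums above 0).

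*Kcnj8* and *Abcc9* encode Kir6.1 and SUR2, the pore and the regulatory subunit of the vascular ATP-sensitive potassium channel. *Kcnj8* was at 6.11 UMIs per 10000 in pericytes of control replicate 1, 0.709 in control replicate 2 and 4.55 in knockout replicate 2. Endothelial cells held 1 *Kcnj8* UMI, in control replicate 1, where the level was 1.61 per 10000. The classes overlapped because control replicate 2, with 1 *Kcnj8* UMI in 3 pericytes, lay below that value. The pooled *Kcnj8* ratio was 13.1 with an interval of 2.20 to 533, and the fitted log2 fold change was 3.67 with a standard error of 1.08 (edgeR quasi-likelihood test, Benjamini-Hochberg adjusted p = 0.0115, 2 of 3 pericyte sums above the 4 endothelial sums). With the plate as a block the adjusted p of *Kcnj8* was 0.126 (edgeR quasi-likelihood test, Benjamini-Hochberg, log2 fold change 3.37), and over 13 alternatives it ranged from 0.000473 to 0.223, with 8 of 13 called. The *Kcnj8* call was lost without control replicate 1 or knockout replicate 2 (adjusted p 0.0505 and 0.223 in edgeR's quasi-likelihood test with Benjamini-Hochberg adjustment) and without cells with a shared barcode (0.0902). The fitted log2 fold changes of *Kcnj8* were then 5.53, 2.87 and 3.11, so without control replicate 1 the call was lost at a larger fold.

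*Abcc9* was more even over the plates, at 6.66 UMIs per 10000 in pericytes of control replicate 1, 4.26 in control replicate 2 and 6.41 in knockout replicate 2. The endothelial cells held 1 *Abcc9* UMI, in knockout replicate 2 at 1.01 per 10000. All pericyte sums were above all endothelial sums for *Abcc9*. The pooled *Abcc9* ratio was 18.9 with an interval of 3.24 to 762, and the fitted log2 fold change was 4.22 with a standard error of 1.0 (edgeR quasi-likelihood test, Benjamini-Hochberg adjusted p = 0.00082, 3 of 3 pericyte sums above the 4 endothelial sums). Both subunit genes had a UMI in 13 of 21 pericytes, *Kcnj8* alone in 1, *Abcc9* alone in 3 and neither in 4. Joint detection varied between other pairs of members. *Cspg4* and *Mcam* were both found in 18 pericytes, *Higd1b* and *Cspg4* in 14, *Rgs5* and *Rgs4* in 8, and *Vtn* and *Anpep* in 5. Whether joint detection exceeds what the depth of the cells gives was not tested.

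*Higd1b* encodes a small mitochondrial membrane protein of the hypoxia-inducible domain family. It was at 7.77 UMIs per 10000 in pericytes of control replicate 1, 2.13 in control replicate 2 and 7.24 in knockout replicate 2, and had no UMI in endothelial cells. The pooled *Higd1b* level of 6.46 per 10000 in pericytes was 6.69 times the floor, with an exact lower limit of the ratio at 5.25 (edgeR quasi-likelihood test, Benjamini-Hochberg adjusted p = 5.83e-05, 3 of 3 pericyte sums above 0). Of the genes that were 0 in endothelial cells, it was the only one of the 10 that was called. *Vtn*, the gene for vitronectin, an adhesive plasma and matrix protein, was at 0.555, 0.709 and 2.48 UMIs per 10000 in pericytes of control replicate 1, control replicate 2 and knockout replicate 2 and at 0 in endothelial cells. The pooled *Vtn* level in pericytes was 1.80 times the floor, with an exact lower limit of the ratio at 1.28, and *Vtn* was not called (edgeR quasi-likelihood test, Benjamini-Hochberg adjusted p = 0.0899, 3 of 3 pericyte sums above 0). *Des*, the gene for the intermediate filament desmin, was at 1.11, 4.26 and 3.10 UMIs per 10000 in pericytes of the same plates, and its 1 endothelial UMI gave 1.61 in control replicate 1. The classes overlapped for *Des* through control replicate 1, whose endothelial UMI was in a cell with a shared barcode, and the pooled ratio was 8.88 with an interval of 1.44 to 366. *Des* was not called at a fitted log2 fold change of 3.13 (edgeR quasi-likelihood test, Benjamini-Hochberg adjusted p = 0.0688, 2 of 3 pericyte sums above the 4 endothelial sums). Without control replicate 1 it was (edgeR quasi-likelihood test, Benjamini-Hochberg adjusted p = 0.0344, log2 fold change 5.72, range over 12 alternatives 0.0344 to 0.299, 1 of 12 called). Without cells with a shared barcode *Des* had no endothelial UMI and was not called (edgeR quasi-likelihood test, Benjamini-Hochberg adjusted p = 0.09).

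The counts of called genes moved with the setting more than the calls of *Rgs5*, *Cspg4*, *Abcc9* and *Higd1b*, which were called under every alternative in which they were tested. With the plate as a block, a fit that leaves out knockout replicate 1 because it holds no pericytes, 140 genes and 4 members were called, and 137 of the 140 were among the 256. Without knockout replicate 1 and with no block, 218 genes and 5 members were called. Without cells with a shared barcode 136 genes and 4 members were called. Without control replicate 1 the count was 138 genes and 6 members, and without knockout replicate 2 it was 100 genes and 4 of the 6 members that were still tested. Scaling by library totals without TMM factors called 112 genes higher and 115 lower in pericytes in place of 180 and 76, with 5 members called, all higher. This scaling moved the median log2 fold change of all genes by -0.39, to 0.13. All 10 members were higher in pericytes under both scalings.

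In pericytes the levels of the 10 genes, as 3′ UMIs at 1 per molecule, spanned from 89.9 per 10000 for *Rgs5* to 1.37 for *Anpep*. *Rgs5* made up 63.9% of the 1131 UMIs of the 10 genes in pericytes. It had 6.51 times the UMIs of *Cspg4*, the next in order, with an interval of 5.33 to 8.03 and the same order in 3 of 3 plates. *Cspg4* at 13.8 and *Mcam* at 12.4 UMIs per 10000 did not differ beyond counting error, with a ratio of 1.11 and an interval of 0.84 to 1.47. Their order differed between plates, with 24 UMIs of each in control replicate 1, 10 of *Cspg4* and 24 of *Mcam* in control replicate 2, and 77 and 52 in knockout replicate 2. *Mcam* had 1.92 times the UMIs of *Higd1b*, with an interval of 1.36 to 2.74 and the same order in 3 of 3 plates. From *Higd1b* at 6.46 UMIs per 10000 the order ran over *Abcc9* at 6.09, *Kcnj8* at 4.23, *Des* at 2.86, *Rgs4* and *Vtn* at 1.74 each, to *Anpep* at 1.37. No pair of neighbours in that stretch differed beyond counting error. Summed, the 10 genes held 151.5, 90.1 and 151.2 UMIs per 10000 in pericytes of control replicate 1, control replicate 2 and knockout replicate 2, and 32.1, 3.35, 11.8 and 14.1 in endothelial cells of control replicates 1 and 2 and knockout replicates 1 and 2. The highest endothelial sum, in control replicate 1, held 10 UMIs of *Mcam* among 20.

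Single pericytes showed how the sums arise. All 21 pericytes had a UMI of *Rgs5*, 19 had *Cspg4*, 19 *Mcam*, 16 *Abcc9*, 15 *Higd1b*, 14 *Kcnj8*, 12 *Des*, 9 *Vtn*, 8 *Rgs4* and 8 *Anpep*. Of the 11 endothelial cells, 6 had a UMI of *Rgs5*, 6 *Mcam*, 2 *Cspg4* and 1 each *Kcnj8*, *Abcc9* and *Des*. A pericyte held UMIs of 3 to 10 members with a median of 7, and an endothelial cell of 0 to 4 with a median of 1. *Rgs5*, *Cspg4* and *Mcam* were found together in 18 of 21 pericytes and in 2 of 11 endothelial cells. Pericytes without a UMI were at least as many as 1 common level and Poisson counting would leave for each of the 9 members other than *Rgs5*. They numbered 6 against 2.95 for *Higd1b*, 5 against 3.23 for *Abcc9*, 7 against 5.26 for *Kcnj8*, 13 against 11.3 for *Rgs4* and 2 against 0.665 for *Cspg4*. The numbers were 2 against 0.85 for *Mcam*, 9 against 7.86 for *Des*, 12 against 11.3 for *Vtn* and 13 against 12.8 for *Anpep*. Whether these gaps exceed counting error was not tested. No count of *Rgs4*, *Vtn* or *Anpep* passed 4 UMIs in a cell, so cells without a UMI cannot be told apart from cells at a low level for these genes.

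*Rgs5* varied between pericytes beyond counting error. Its UMIs per pericyte ran from 15 to 57 with a median of 33, and its level from 23.0 to 252 per 10000 with a median of 93.2. The spread of its counts around those expected at 1 common level and each cell's depth was 13.1 times that of Poisson counting. Within control and within knockout pericytes, each with its own common level, this spread was 22.7 and 8.0 times. The expected counts carry the cell's depth. The variance of the *Rgs5* UMI counts themselves was 4.0 times their mean over all pericytes, 2.43 times in control and 3.67 times in knockout pericytes, the opposite order of the genotypes. Such ratios grow with the UMIs of a gene, so they are not compared between members. The number of *Rgs5* UMIs had a Pearson r of -0.04 with the depth of the cell over all 21 pericytes, which joins -0.91 over the 9 control cells and 0.29 over the 12 knockout cells. It was -0.26 over the 14 cells without a shared barcode. The *Rgs5* level per 10000 was lower in deeper cells (Pearson r = -0.83, Spearman rho = -0.89). Level and depth share the cell's total UMIs, and the cells come from 3 plates of different depth. Without cells with a shared barcode the correlation of level and depth was -0.87 over 14 cells, and within genotypes it was -0.94 over control and -0.78 over knockout cells. The UMI counts of *Mcam*, *Cspg4*, *Higd1b* and *Abcc9* rose with depth, with r of 0.73, 0.70, 0.67 and 0.62 over the same 21 cells, and of 0.67, 0.55, 0.62 and 0.71 over the 14 without a shared barcode. For *Kcnj8* r was 0.25 over the 21 cells and -0.03 over the 14. For the sparser *Rgs4*, *Vtn*, *Des* and *Anpep* it was 0.50, 0.31, 0.40 and 0.51 over the 21.

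Divided by depth into 3 sets of 7 pericytes, the cells held 178 UMIs of *Rgs5* per 10000 at 1309 to 3124 total UMIs, 96.1 at 3243 to 4238 and 55.7 at 4451 to 7222. The 8 wells with *Pdgfrb* and no *Cldn5* above the upper limit, at 5973 to 11358 total UMIs before scaling, held 22.4. The *Rgs5* level thus fell at each step, and the intervals of neighbouring sets did not overlap. The UMIs of *Rgs5* in the 4 sets were 249, 247, 227 and 153, and the sets were cut by the same totals that divide the level. *Mcam* stayed within 9.73 to 13.7 UMIs per 10000 over the same 4 sets and *Cspg4* within 9.64 to 16.0. *Higd1b* went the other way, at 2.85, 5.45, 8.34 and 10.8 UMIs per 10000 from the shallowest to the deepest set. The mitochondrial share also moved with *Rgs5*, with a Spearman rho of 0.73 between it and the level per 10000 over the 21 pericytes. The parts of depth and mitochondrial share in the spread of *Rgs5* were not tested.

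**Figure D2:**
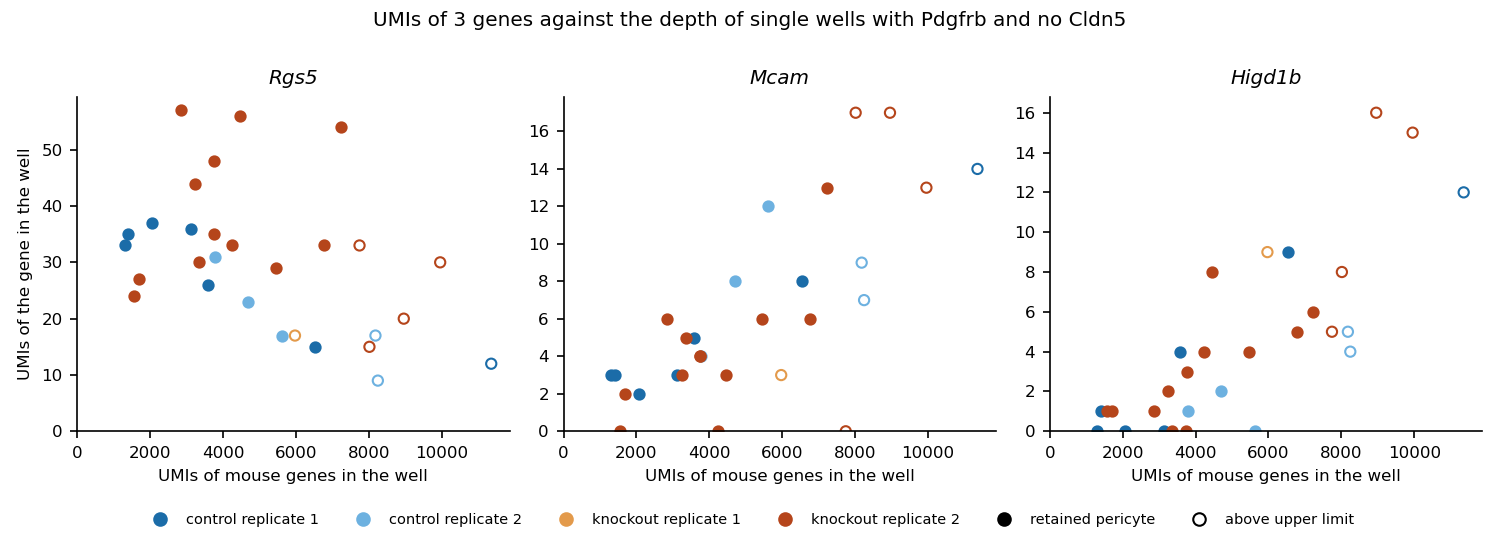
UMIs of *Rgs5*, *Mcam* and *Higd1b* in single wells with *Pdgfrb* and no *Cldn5*, against the well's UMIs of mouse genes, with filled points for the 21 retained pericytes and open points for 8 wells above the upper limit, coloured by plate. In retained cells r with depth is -0.91 in control and 0.29 in knockout pericytes for *Rgs5* and 0.73 over all 21 for *Mcam*, and over all 29 wells drawn it is -0.45 for *Rgs5*.

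The second question was whether pericytes differ between genotypes when the receptor is lost in the neighbouring endothelial cells. Each genotype was 1 pooled suspension, so no test was made, and the exact 95% intervals of ratios cover counting error only. The 9 control pericytes held 32109 UMIs and the 12 knockout pericytes, all from knockout replicate 2, held 48351. A gene counts as called at an absolute log2 ratio of at least 1 with at least 30 UMIs in pericytes. None of the 6 members with at least 30 UMIs reached this ratio, against 32 of 423 genes (7.57%). The median log2 ratio of control over knockout was -0.29 over these 6 members and -0.06 over the 423 genes. That no member reached the ratio depended on the cells used. *Higd1b* was at -1.17 without the deepest cell of each genotype. Without control replicate 1 *Cspg4* was at -1.17 and *Higd1b* at -1.77. The share of all genes past the ratio was not counted in these settings. Summed, the 10 genes were at 124.6 UMIs per 10000 in control and 151.2 in knockout pericytes, a log2 ratio of control over knockout of -0.28 with an interval of -0.46 to -0.10. The control plates, from 1 suspension, differed more, with a log2 ratio of replicate 1 over replicate 2 of 0.75 and an interval of 0.44 to 1.07. With *Rgs5* left out of the sum both intervals included equal levels, at -0.24 (-0.54 to 0.06) between genotypes and 0.35 (-0.15 to 0.85) between the control plates.

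*Rgs5* was at 78.8 UMIs per 10000 in control and 97.2 in knockout pericytes, a log2 ratio of -0.30 with an interval of -0.53 to -0.08. The knockout level lay between those of control replicate 1 at 101 and control replicate 2 at 50.4, whose log2 ratio was 1.0 with an interval of 0.60 to 1.42. The direction turned with the plate used, from -0.95 without control replicate 1 to 0.06 without control replicate 2. It was 0.07 with each cell at the same weight and -0.78 without cells with a shared barcode. The median depth of single pericytes, 2593 UMIs in control replicate 1, 4695 in control replicate 2 and 3752.5 in knockout replicate 2, ran opposite to the *Rgs5* level in these plates. In UMIs per cell *Rgs5* was at 30.3, 23.7 and 39.2 in the same plates. The median mitochondrial share was 4.0% in control and 5.01% in knockout pericytes, and with a mitochondrial limit of 5% the log2 ratio of *Rgs5* was -0.13. The parts of depth and mitochondrial share in the *Rgs5* ratio were not tested.

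The remaining members had intervals that included equal levels between genotypes. *Cspg4* was at 10.6 UMIs per 10000 in control and 15.9 in knockout pericytes, a log2 ratio of -0.59 with an interval of -1.22 to 0.01. *Mcam* went the other way, at 14.9 in control and 10.8 in knockout pericytes per 10000, a log2 ratio of 0.48 with an interval of -0.12 to 1.07. These directions held under all 10 alternatives that differ in cells or method, at -1.17 to -0.26 for *Cspg4* and 0.18 to 0.75 for *Mcam*. *Kcnj8* was at 3.74 UMIs per 10000 in control and 4.55 in knockout pericytes, a log2 ratio of -0.28, while the control plates differed by 3.11 with an interval of 0.32 to 8.53. *Higd1b* at 5.29 and 7.24 UMIs per 10000 had a log2 ratio of -0.45, and *Abcc9* at 5.61 and 6.41 one of -0.19. The direction of all 3 turned with the control plate used. Without control replicate 1 the log2 ratios were -2.68 for *Kcnj8*, -1.77 for *Higd1b* and -0.59 for *Abcc9*, and without control replicate 2 they were 0.42, 0.10 and 0.06. *Vtn* had the widest gap, with 2 UMIs in control and 12 in knockout pericytes, a log2 ratio of -1.99 with an interval of -5.20 to 0.17, and it was -0.53 with no upper limit of UMIs per well. *Rgs4*, *Des* and *Anpep* had log2 ratios of -0.26, -0.32 and -0.82 from 5, 8 and 3 UMIs in control pericytes. Without control replicate 1 these were 0.19, 0.46 and -0.22, and without control replicate 2 -0.75, -1.48 and -1.58, so the directions of *Rgs4* and *Des* turned with the plate. *Rgs4* kept its sign in 4 of 11 alternatives and also turned with no plate left out, to 0.36 without the deepest cell of each genotype, 0.10 with totals not scaled, 0.43 with no upper limit, 0.29 without cells with a shared barcode and 0.13 with each cell at the same weight. *Anpep* was at -1.39 without cells with a shared barcode and at -2.09 with a mitochondrial limit of 5%. *Kcnj8* and *Abcc9* likewise turned with no plate left out. *Kcnj8* was at 0.057 without the deepest cell of each genotype, and *Abcc9* at 0.0093 with the mitochondrial limit of 5%. For *Rgs5* as for the other members, genotype and suspension cannot be told apart. The assigned gates differed as well. Control pericytes came from plates of both gates, and knockout pericytes from the plate assigned to the PDGFRB gate with some CD31 wells. With the plates assigned to the PDGFRB gate the log2 ratio of *Rgs5* was -0.95, from the same cells as without control replicate 1.

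**Figure D3:**
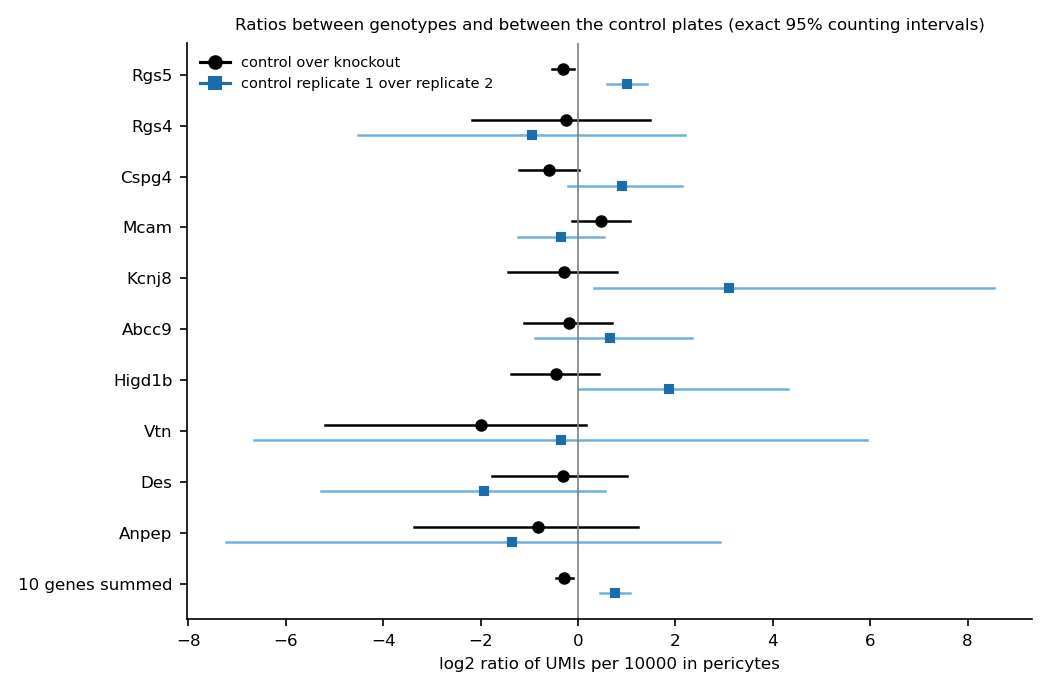
Log2 ratios of UMIs per 10000 in pericytes for each gene and the sum of all 10, control over knockout as circles and control replicate 1 over control replicate 2 as squares, with exact 95% counting intervals. For *Rgs5* the ratio between the control plates, 1.0, is larger than the ratio between genotypes, -0.30.

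Markers of other cells were counted in the same pericytes. Of 15 endothelial genes, 12 had UMIs in pericytes, *Eng* the most with 19, and their sum was 9.82 UMIs per 10000 in pericytes against 130.4 in endothelial cells. *Cldn5*, which defines the classes, and *Vwf* were at 0 in pericytes, and *Erg* was at 0 in both classes. Smooth muscle genes were at 21.6, 24.8 and 18.0 UMIs per 10000 in pericytes of control replicate 1, control replicate 2 and knockout replicate 2, led by *Acta2* with 102 UMIs, and 5 of the 8 had UMIs while *Cnn1*, *Actg2* and *Lmod1* had none. This list holds *Des*, so 1 of its genes is a member. Of 7 fibroblast genes *Col1a2* had 89 UMIs, and *Pdgfra*, *Dcn*, *Lum* and *Dpt* had none. In endothelial cells the smooth muscle list was at 4.19 and the fibroblast list at 1.61 UMIs per 10000. Of 3 smooth muscle genes tested 2 were called higher in pericytes, *Acta2* among them, as was *Col1a2*, against 6.69% of all genes. Without cells with a shared barcode *Acta2* was not called. Macrophage genes had 16 UMIs in pericytes, all in knockout replicate 2 at 3.31 per 10000. They came from 7 of 11 genes, with *C1qc* highest at 5 UMIs, all in 1 pericyte, while *Csf1r*, *Tyrobp*, *Cx3cr1* and *Mrc1* were at 0. Erythroid genes had 18 UMIs, led by *Hba-a1* with 8, and were at 0.555, 2.13 and 2.90 UMIs per 10000 in the same order of plates. In endothelial cells they had 233 UMIs in control replicate 2, 260.1 per 10000, the plate with the lowest endothelial *Rgs5* level, and at most 5.07 per 10000 in the other plates. Their part in the class comparison of *Rgs5* was not tested. These macrophage and erythroid counts were higher in the knockout pericytes, and their part in the genotype ratios of the members was not tested. *Mitf* with 2 UMIs, *Cryba2* with 1 and *Tubb3* with 2 led the melanocyte, lens and neuronal lists, and the 5 astrocyte genes had none.

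Other mural genes went with the members, in a list chosen with earlier results of these data known. Of 30 such genes, 24 had enough UMIs to be tested, 15 were called higher in pericytes, 0 lower, and 9 were not called, against 180 of 2689 (6.69%) called higher over all genes. Summed, they were at 119.4, 81.6 and 125.5 UMIs per 10000 in pericytes of control replicate 1, control replicate 2 and knockout replicate 2, lowest in control replicate 2 like *Rgs5*. Their median fitted log2 fold change was 4.20, or 2.45 with genes at 0 in a class set at their bound. Of the 24 tested, 10 had no endothelial UMI and passed the filter through pericytes alone, so they could not come out lower. *Ndufa4l2*, *Gucy1b1*, *Atp13a5* and *Rasl12* were the called genes among these. *Notch3*, the mural receptor for endothelial Jagged1, had 107 UMIs in pericytes, 13.3 per 10000, and 2 in endothelial cells. *Heyl*, a target of Notch signalling, was at 9.20 against 0.966 UMIs per 10000. The genes of nitric oxide and cyclic GMP signalling in the list, *Gucy1a1* at 7.83, *Gucy1b1* at 5.72 and *Pde5a* at 6.96 UMIs per 10000 in pericytes, were all called, as were the receptor genes *Ednra* at 6.21 and *S1pr3* at 3.98. Further receptor genes of the list, *P2ry14* with 4 UMIs and *Pth1r* with 5 in pericytes, had too few UMIs to be tested. The transcription factor genes *Ebf1* at 7.95 and *Zic1* at 6.71 UMIs per 10000 in pericytes were called as well. Further transcription factor genes of the list, *Foxf2* with 12 UMIs and *Tbx18* with 10 in pericytes, were not called, and *Nkx3-2* had 0. The others called were *Ndufa4l2* at 10.4, *Ifitm1* at 6.34, *Cd248* at 5.59, *Itga7* at 4.10, *Rasl12* at 3.11 and *Atp13a5* at 2.98 UMIs per 10000 in pericytes. With DESeq2 8 of the 15 were called, against 56 genes called higher in all. With the plate as a block 12 of the 15 were called, against 99 genes higher in all, and *Atp13a5*, *Itga7* and *Rasl12* were not. Without control replicate 1 it was 9 of the 15 against 82 in all, without knockout replicate 2 it was 6 against 62, and without cells with a shared barcode 11 against 95. Of the 24 genes, 21, 12 and 16 were still tested in these settings, so the counts may join lost calls with genes no longer tested.

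Of 20 relatives of the members by family, 7 had enough UMIs to be tested and 0 were called in either direction by edgeR, a number that does not show equal levels. *Enpep* stands in this list and among the other mural genes, and it was called with no upper limit of UMIs per well. The median fitted log2 fold change of the 7 was 1.86, or 0.95 with genes at 0 in a class set at their bound. Their summed level was 23.6 UMIs per 10000 in pericytes and 28.3 in endothelial cells, led by *Vim*, an intermediate filament gene like *Des*, with 72 UMIs in pericytes at 8.95 per 10000 and 18.0 in endothelial cells. *Higd2a* had 27 UMIs and *Rgs3* 18 in pericytes, against 52 of *Higd1b* and 723 of *Rgs5*.

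By pattern over all 32 cells, as Pearson's r of log-normalised levels among 302 genes with at least 50 UMIs, the genes most like *Rgs5* were *Serpine2* at 0.91, *Mgp* at 0.88, *F2r* at 0.85, *Pdgfrb* at 0.84 and *Nrep* at 0.82. *Pdgfrb* defined the pericytes and counts as given. *Serpine2* was at 42.6, *Mgp* at 48.7 and *Nrep* at 41.9 UMIs per 10000 in pericytes. Within the 21 pericytes the same correlations were 0.31 for *Serpine2*, -0.10 for *Mgp*, 0.41 for *F2r*, 0.17 for *Pdgfrb* and 0.09 for *Nrep*. Each of these correlations was lower within pericytes than over all cells. The cells share plates, suspensions and, in part, depth.

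Wells outside the classes held the members as well. The 3 retained wells with both *Pdgfrb* and *Cldn5* held 94 *Rgs5* UMIs, 63.9 per 10000 with an interval of 51.7 to 78.2, which lies within the range of the pericyte sums. Of the 7 retained wells with neither marker, 1 held 21 of the 24 *Rgs5* UMIs, and the other 6 were at 4.20 per 10000. The 3 wells above the upper limit with neither marker were at 6.46 *Rgs5* UMIs per 10000, and with *Pdgfrb* alone the 8 wells above the limit held 71.7 UMIs of the 10 genes per 10000, against 140.6 in retained pericytes.

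In the genome the members fall on 5 chromosomes, and 2 pairs are neighbours. Positions are those of GRCm38. *Rgs5* (ENSMUSG00000026678) lies at chr1:169655501-169695813 on the plus strand and *Rgs4* (ENSMUSG00000038530) at chr1:169741477-169747642 on the minus strand, 45663 bases apart. *Kcnj8* (ENSMUSG00000030247) lies at chr6:142564837-142571614 and *Abcc9* (ENSMUSG00000030249) at chr6:142587862-142702315, both on the minus strand and 16247 bases apart. *Des* (ENSMUSG00000026208) lies at chr1:75360329-75368579, *Mcam* (ENSMUSG00000032135) at chr9:44134469-44142727 and *Cspg4* (ENSMUSG00000032911) at chr9:56865033-56899870. *Vtn* (ENSMUSG00000017344) lies at chr11:78499091-78502324, *Higd1b* (ENSMUSG00000020928) at chr11:102835849-102838040 and *Anpep* (ENSMUSG00000039062) at chr7:79821803-79861059. The pairs of neighbours differed in level to unlike degrees, *Rgs5* at 89.9 against *Rgs4* at 1.74 UMIs per 10000 in pericytes, and *Abcc9* at 6.09 against *Kcnj8* at 4.23. *Mcam* overlaps *Gm10687* on the opposite strand, which had 7 UMIs in pericytes and 2 in endothelial cells. *Abcc9* overlaps *5330439B14Rik* and *Des* overlaps *Gm15179*, both on the opposite strand and with 0 UMIs in these cells, and *Anpep* overlaps *Gm44974* on the same strand, which is not among the genes counted. Whether counting was strand-specific is not known from the sources used here, so UMIs of *Mcam* and *Gm10687* cannot be assigned with certainty.

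The promoters of *Rgs5* and of the channel genes are shown, from 250 bases before to 50 after the start of transcription, because *Rgs5* had the highest level and the channel genes, neighbours on the chromosome, encode subunits of 1 channel. They are the RefSeq sequences of GRCm38.p6, read 5′ to 3′ on the strand of the gene, at chr1:169655251-169655550 (plus) for *Rgs5*, chr6:142571565-142571864 (minus) for *Kcnj8* and chr6:142702225-142702524 (minus) for *Abcc9*. Capitals mark TGGGAA, the core letters of RBPJ, the DNA-binding partner of Notch, searched on both strands.
Rgs5: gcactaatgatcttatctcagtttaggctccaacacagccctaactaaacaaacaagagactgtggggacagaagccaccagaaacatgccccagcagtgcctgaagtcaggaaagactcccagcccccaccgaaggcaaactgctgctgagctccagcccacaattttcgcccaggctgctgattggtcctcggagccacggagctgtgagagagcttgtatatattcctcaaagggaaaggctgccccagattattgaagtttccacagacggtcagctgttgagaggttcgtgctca
Kcnj8: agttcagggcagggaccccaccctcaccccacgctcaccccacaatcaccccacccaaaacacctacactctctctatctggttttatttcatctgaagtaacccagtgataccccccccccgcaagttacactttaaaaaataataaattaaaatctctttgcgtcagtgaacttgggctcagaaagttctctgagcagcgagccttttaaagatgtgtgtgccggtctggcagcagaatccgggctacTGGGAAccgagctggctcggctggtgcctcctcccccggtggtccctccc
Abcc9: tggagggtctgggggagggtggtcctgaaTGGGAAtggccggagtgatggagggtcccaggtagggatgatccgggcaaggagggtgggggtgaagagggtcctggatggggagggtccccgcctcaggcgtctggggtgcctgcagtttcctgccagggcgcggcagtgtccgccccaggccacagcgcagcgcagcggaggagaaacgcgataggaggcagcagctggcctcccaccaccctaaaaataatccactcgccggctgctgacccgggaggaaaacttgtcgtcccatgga
Of the 10 members, 9 had a promoter in the table. TGGGAA occurred in 3 of these 9, *Kcnj8*, *Abcc9* and *Vtn*, and in 25.6% of 32817 promoters of the same length. The letters TATAAA of the TATA box occurred in *Rgs4* and *Vtn*, and in 13.6% of all promoters. The E-box letters CACGTG occurred in none of the 9 and in 7.15% of all promoters. A match is a description of these letters only.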

How the data were processed

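SORT-seq PLUS plates of single cells from hyaloid vessels were analysed. The authors aligned reads to GRCm38 with STARsolo 2.7.11b and deposited, for every well, estimated counts of each gene's UMIs, which carry a correction for UMI collisions and no normalization. Each value was rounded to whole UMIs before sums, intervals and tests. The 92 spike-ins were left out. Plate scaling, limits of 1000 to 8000 UMIs, the mitochondrial limit of 10% and the marker rule were set as the study's methods give them, but the numbers of control and knockout pericytes retained differ from the study's. The members and the gene lists were chosen with earlier results of these data known. Genes are named as members, class markers, called genes of the list of other mural genes, the 5 genes most like *Rgs5*, and the most abundant gene of each list of other cell types. *Higd2a*, *Rgs3*, *Enpep*, *Foxf2*, *Tbx18*, *Nkx3-2*, *P2ry14*, *Pth1r*, genes that overlap members and the marker genes at 0 were added with their values in view.

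Class sums per plate were compared with edgeR 4.0.16 (glmQLFit and glmQLFTest, TMM, at least 10 UMIs, Benjamini-Hochberg) on limma 3.58.1 and R 4.3.3. Deviations of a plate's pericyte and endothelial sums from their class means correlated at -0.018, -0.0087 and -0.012 over 2689 genes, which are not independent, in control replicate 1, control replicate 2 and knockout replicate 2. Both classes of a plate were sorted from the same suspension, and the plate as a block was an alternative, as were DESeq2 1.42.0 and the settings of the closing section. No doublet caller was run, since wells received 1 cell and wells with both markers were set aside. Sums and intervals were computed in python 3.11.15 (pandas 2.3.3, scipy 1.17.1, numpy 2.4.6), and plots were drawn with matplotlib 3.10.9. Positions came from GENCODE and promoters from RefSeq. Clustering was not repeated.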

Additional observations from a re-analysis of the deposited data

Results flagged for a closer look

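In groups of 4 plates, the gap of the highest or lowest plate to its nearest neighbour was compared with the whole range of the group. Of 16 such groups of endothelial or low-well levels, 3 had a plate that stood apart, and chance flags about 1 in 20 groups. *Kcnj8* in endothelial cells was at 1.61 UMIs per 10000 in control replicate 1, *Abcc9* at 1.01 in knockout replicate 2 and *Des* at 1.61 in control replicate 1. Each value is 1 UMI against 0 in the other 3 plates, which meets this measure whatever its value, so the chance rate does not apply to these groups.

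A signal also appeared in wells that no comparison uses. In wells under 1000 UMIs *Rgs5* was at 63.2 UMIs per 10000 in knockout replicate 2, with an interval of 57.0 to 69.8, above the low wells of control replicate 1 at 50.2 and control replicate 2 at 34.9. The low wells of knockout replicate 1 were lowest, at 31.0. The cause was not tested.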

How the results depend on the processing

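Of the class results for single members under the alternatives, 108 kept their direction and side of the threshold, 14 kept their direction and lost the call, 1 gained it and 0 reversed. With DESeq2 104 genes were called in place of 256, with the plate as a block 140, without cells with a shared barcode 136, and leaving out 1 plate gave 100 to 218. With edgeR's filterByExpr 51 of 148 genes and 2 members, the 2 still tested, were called in place of 6. The filter and the smaller number of genes, cells or plates enter these counts by construction, and for DESeq2 the cause was not tested. The fit with the block leaves out knockout replicate 1, which has no pericytes. Beside the main calls it lacked *Mcam*, also not called without that plate alone, and *Kcnj8*, and no other member's call changed.

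The genotype log2 ratio of the summed members, -0.28, was -0.75 with the plates assigned to the PDGFRB gate, which hold the same cells as leaving out control replicate 1, -0.55 without cells with a shared barcode and -0.027 with each cell at the same weight. Leaving out 1 control plate gave -0.75 to 0.0035. Without knockout replicate 2 no knockout pericytes remain, so there is no value. UMIs per cell were tried after seeing the data. The cause was not tested for any of these. Of the members' genotype ratios, with settings of the same cells counted once, 94 stayed within their intervals and 6 moved. At 1000 UMIs per cell, a mean of 4.18 members per pericyte is calculated in place of 6.71, by the construction of fewer UMIs. Depth limits *Rgs4*, *Vtn*, *Des* and *Anpep*, with 11 to 23 UMIs each in pericytes.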

Other observations

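Wells under 1000 UMIs, which are not retained as cells, held 1042 UMIs of *Rgs5*, 46.2 per 10000. Where the well barcode also marked a well of at least 1000 UMIs in another plate, the *Rgs5* level of low wells was 117 per 10000 in control replicate 1, 101 in control replicate 2, 96.9 in knockout replicate 1 and 96.3 in knockout replicate 2. In the other low wells it was 29.8, 21.6, 8.45 and 57.7 in the same order. In each of the 4 plates the level was thus higher in low wells with such a barcode, and the gap was smallest in knockout replicate 2. The low wells with such a barcode, 121 in all, had a median of 307 UMIs, and the other 1357 a median of 119. The sum of the 10 genes in all low wells was 63.0, 43.4, 40.8 and 78.0 UMIs per 10000 in the same order of plates. *Cspg4* was at 4.92 and *Mcam* at 2.30 UMIs per 10000 in all low wells together.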
